A study of Mus musculus with 6 samples.

Results

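Glutathione S-transferases join glutathione, a small thiol peptide, to electrophilic compounds so that the products can be exported and excreted. The soluble enzymes fall into classes named by Greek letters (alpha, mu, pi, theta and zeta are covered here, from the genes named Gsta, Gstm, Gstp, Gstt and Gstz), and the microsomal enzymes (Mgst) belong to a separate membrane family, MAPEG. In liver they are phase 2 enzymes: several are induced by phenobarbital (PB) through the nuclear receptor CAR, encoded by Nr1i3, or by electrophiles through the transcription factor NRF2, encoded by Nfe2l2. The genes were chosen by name: 10 were listed (Gstm1, Gstm2, Gstm5, Gsta4, Gstp1, Gstt1, Gstt2, Gstz1, Mgst1 and Mgst3), and 9 of them were found through the accession or the gene symbol that describes a probe. These 9 genes had 10 probes, of 9328 genes with a symbol and 20868 probes on the array. Gsta4 was found only by its name in words and is counted apart.

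Total liver RNA of mice of the C3H/HeNCrlBR(C3He) background, aged 39 weeks, was compared on 6 Agilent 2-colour arrays. All mice had received the liver carcinogen DEN (diethylnitrosamine). The RNA sources were wild-type (WT) liver after DEN and PB in the drinking water, liver tumour of WT mice after DEN and PB, liver of mice lacking CAR (CAR-KO) treated the same way, and CAR-KO liver after DEN alone. The arrays formed 3 pairs with the dyes swapped, each pair giving 1 comparison: WT liver over CAR-KO liver (both DEN and PB), CAR-KO liver with PB over CAR-KO liver with DEN alone, and WT tumour over CAR-KO liver (both DEN and PB). Every array thus carried RNA of CAR-KO liver given DEN and PB (called CAR-KO PB liver where its level is given), and the comparisons are not independent of each other. The labels do not say how many animals gave each RNA, whether animals were pooled or whether the same extract was labelled for each array of a pair. The p-values then reflect only how far dye-swapped arrays differ, and that spread may be technical. How the knockout was made is not given in the sources used here, so the Nr1i3 probe does not check the labels.

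Each value below is a log2 ratio, turned so that the source named first is the numerator. Each direct comparison has n = 2 arrays. Each error is the standard error (SE) from limma's moderated test, which draws the spread from all 6 arrays. It is thus the same for a member in all 3 direct comparisons and does not measure the gap between the arrays of 1 pair. A gene is said to pass the test, to be higher or to be lower where its p, adjusted by Benjamini and Hochberg's method across every tested probe, is under 0.05. Over all probes, the turned ratios of the 2 arrays of a pair correlated at r = 0.03 for WT liver over CAR-KO liver, -0.35 for the PB comparison and 0.39 for WT tumour over CAR-KO liver. Array 2 of the tumour pair was read with another version of the scanner software and had a median local background of 288 (Cy3) and 299 (Cy5), against 53 to 62 on the other arrays. All 4 hepatocyte markers tested were well above background in every RNA source. Among markers of other tissue, those of skeletal muscle were at a mean log2 level of 6.99 to 7.59 over 6 genes in the shared CAR-KO liver RNA and of 6.54 to 6.77 in the other sources. Of these 6 genes, 1 (Tnnc2) was lower in WT liver, where 0.00964% of all probes were, and 3 (Tnnc2, Tnni2 and Mylpf) were lower in WT tumour, where 0.839% were. In each comparison 2 of the 6 had ratios above 0, the highest being Ckm (0.29) in WT liver and Atp2a1 (0.05) in tumour. These genes are named after their values were seen, and their part in the results was not tested.

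The upstream sequences of genes that passed the test in WT tumour (Gstm2, Gstm5, Mgst3), and of Gstp1 and Mgst1, which did not pass it but held a motif match, are shown to set the genes' values beside what precedes their starts. They are the 120 bases before the RefSeq start (build GRCm38.p6), read 5′ to 3′ on the gene's strand. Capitals mark matches, on either strand, to TGACNNNGC (the core of the antioxidant response element that NRF2 binds), TGAGTCA (the AP-1 site) or AGGTCA (the half-site of nuclear receptors).
Gstm2, chr3:107986421-107986540, minus strand: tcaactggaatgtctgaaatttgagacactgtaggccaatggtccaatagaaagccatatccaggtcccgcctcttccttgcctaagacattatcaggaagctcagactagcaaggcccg
Gstm5, chr3:107895734-107895853, plus strand: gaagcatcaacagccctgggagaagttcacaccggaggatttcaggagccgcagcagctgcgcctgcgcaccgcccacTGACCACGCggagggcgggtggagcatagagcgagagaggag
Mgst3, chr1:167393842-167393961, minus strand: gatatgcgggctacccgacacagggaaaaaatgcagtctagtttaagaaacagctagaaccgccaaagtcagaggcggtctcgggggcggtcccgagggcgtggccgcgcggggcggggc
Mgst1, chr6:138140407-138140526, plus strand: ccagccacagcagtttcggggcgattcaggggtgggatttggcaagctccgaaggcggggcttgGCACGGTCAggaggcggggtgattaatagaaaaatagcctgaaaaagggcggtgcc
Gstp1, chr19:4037913-4038032, minus strand: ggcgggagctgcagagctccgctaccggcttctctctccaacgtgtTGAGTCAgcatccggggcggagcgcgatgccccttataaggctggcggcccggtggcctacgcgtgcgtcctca

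RefSeq gave 11 promoter windows for 8 of the 10 genes, and the search covered 250 bases before each start. TGACNNNGC was found for Gstm5, 42 bases before the start, and for Mgst1, 56 bases before 1 of its 2 starts on the opposite strand; 10.2% of all 32851 windows hold it. TGAGTCA was found for Gstp1, 74 bases before the start, and for Gstm5, 176 bases before the start on the opposite strand; 4.46% of windows hold it. AGGTCA, held by 14.0% of windows, was in no window of these genes. The windows of Gstm1, Gstm2, Gstt1, Gstz1 and Mgst3 held none of the 3 motifs. No 2 of these motifs overlapped in a printed stretch. A match is a run of letters and says nothing of binding.

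In WT liver, compared with CAR-KO liver after the same treatment, Gstm2 was the member of the family that passed the test, at 2.34 ± 0.19, which is 5.06-fold higher (adjusted p = 0.0068, limma). This comparison asks how much of the expression after PB goes with the receptor. Of 20743 probes tested, 0.101% passed in either direction, against 1 of the 9 genes. Gstm2 encodes a mu-class subunit and lies on chromosome 3 between Gstm3 and Gstm1 in the assembly GRCm38.p6. Its turned ratio was 2.48 on array 1 and 2.20 on array 2. Both arrays were high, and only 7 probes of all tested had a larger ratio.

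The call for Gstm2 in WT liver was lost without any 1 array of the WT or PB pairs and kept without either tumour array (adjusted p = 2.47e-06). Without array 1 or array 2 of the WT pair its adjusted p was 0.266 or 0.276, and with 1 or both arrays of the PB pair left out it was 0.0587, at ratios between 2.30 and 2.38. With the scanner software's processed signals in place of the normexp and loess values, the ratio was 2.43 and no probe of the array passed (adjusted p of Gstm2 0.376).

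Gstm1, the neighbouring mu-class gene, had nearly as large a ratio in WT liver but did not pass the test. Its turned ratio was 2.02 on array 1 and 1.87 on array 2, with a fitted value of 1.95 ± 0.30 (adjusted p = 0.147, limma). Its spot was saturated in the WT channel on 1 of 2 arrays, with a mean signal of 65215, so that array can understate the ratio. The test draws its spread from all 6 arrays, and the tumour arrays of Gstm1 lay far apart (1.59 and 0.33). Without either tumour array the adjusted p for WT liver was 1.91e-05 at the same ratio. On the arrays of the WT pair alone it was 2.73e-05, and with arrays weighted by their quality it was 0.00159.

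The other 7 members did not pass the test in WT liver. Gstm5, a mu-class gene, was at 0.63 ± 0.15 (0.82 and 0.43 on the arrays, adjusted p = 0.775, limma) on its brighter probe, and its dimmer probe was at 0.07 ± 0.15. Gstt1 and Gstt2, of the theta class, were at 0.25 ± 0.21 and 0.07 ± 0.20. Gstz1, which encodes maleylacetoacetate isomerase of tyrosine breakdown, was at -0.04 ± 0.15. The microsomal genes Mgst1 and Mgst3 were at 0.08 ± 0.15 and 0.01 ± 0.16. Gstp1, the pi-class gene, was at -0.13 ± 0.28. The 95% intervals of these values lay within -0.79 and 0.98 before adjustment, and that of the brighter Gstm5 probe was 0.28 to 0.98. Over the 9 genes the median was 0.08, against -0.02 over all probes.

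**Figure D1:**
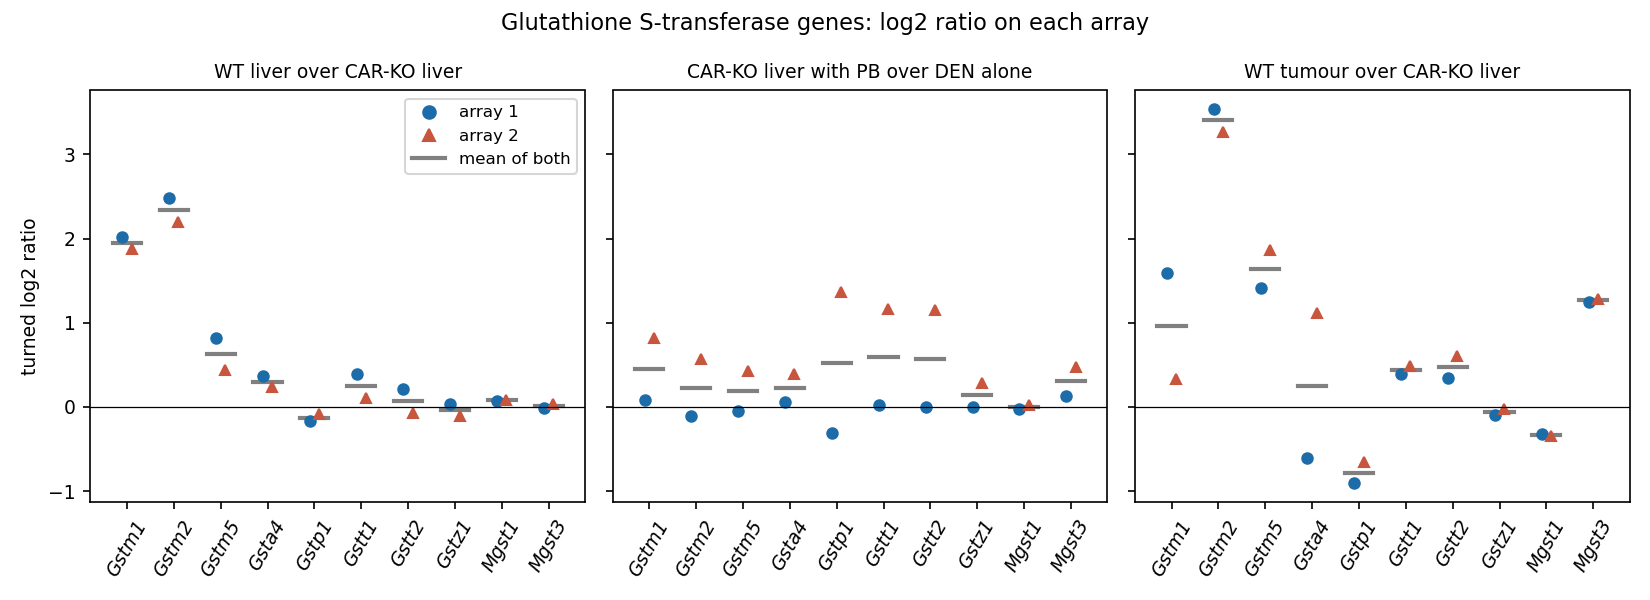
Turned log2 ratio (vertical axis) of each gene (horizontal axis) on array 1 (circles) and array 2 (triangles) of the 3 dye-swapped pairs, with the mean of both arrays as a grey bar. Gstm1 and Gstm2 stand at 1.87 to 2.48 in WT liver, Gstm2 at 3.27 and 3.54 in WT tumour, and in the PB comparison array 2 lies above array 1 for all 10 genes.

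In WT tumour, compared with CAR-KO liver, Gstm2, Gstm5 and Mgst3 were higher, and none of the 9 genes was lower. Genotype and tumour differ together in this comparison and cannot be told apart. Of 20744 probes tested, 3.36% passed (698, of which 524 were higher), 2.53% as higher and 0.839% as lower. With each array centred on its median in place of loess, 4133 probes (19.9%) passed, of which 2370 were higher. Without tumour array 2, 22.7% of all probes passed (4708, of which 1799 were higher and 2909 lower), and without tumour array 1, 3.41% did (707); counts given below under these settings stand beside those shares. In whole tissue, fewer cells of a type and less RNA per cell cannot be told apart.

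Gstm2 had the largest ratio among the members measured without saturation in tumour (Gstm1 was saturated there and cannot be ranked), 3.40 ± 0.19, which is 10.6-fold (adjusted p = 0.00047, limma). Its turned ratio was 3.54 on array 1 and 3.27 on array 2. It ranked 6 among all probes by ratio. Its normalised log2 level was 13.44 and 13.49 in tumour, 12.01 and 12.26 in WT liver, 9.63 to 10.17 over the 6 readings of CAR-KO PB liver, and 9.06 and 10.01 in CAR-KO liver after DEN alone. The readings of tumour lay above those of WT liver, and those of WT liver above all of CAR-KO liver, while both CAR-KO sources overlapped. The ratio to CAR-KO liver stayed between 3.03 and 4.07 over the 18 alternative settings and passed under 16 of them.

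Gstm5, a mu-class gene known mainly from tissues other than liver, was at 1.64 ± 0.15 on its brighter probe (adjusted p = 0.0020, limma), a 3.12-fold difference. The ratio was 1.41 on array 1 and 1.87 on array 2. The dimmer probe, described by an expressed sequence tag, was at 0.71 ± 0.15 (0.80 and 0.63, adjusted p = 0.054) and did not pass, so the 2 probes differed in size and in call but not in sign. The level of the brighter probe was 10.08 and 10.24 in tumour, 9.02 and 9.19 in WT liver, 8.32 to 8.67 in CAR-KO PB liver, and 7.89 and 8.47 after DEN alone.

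Mgst3, a microsomal enzyme with glutathione transferase and peroxidase activity, was at 1.26 ± 0.16 (adjusted p = 0.0075, limma), a 2.40-fold difference. The arrays gave 1.24 and 1.29. A further probe, matched to Mgst3 only through an older symbol, gave 0.76 and 1.07 with a fitted value of 0.92 ± 0.18 (adjusted p = 0.044), and this call held under 5 of 18 alternatives. The level of the main probe was 8.25 and 8.44 in tumour, 7.31 and 7.38 in WT liver, 7.01 to 7.34 in CAR-KO PB liver, and 6.56 and 7.04 after DEN alone. The tumour readings stood apart, while WT liver and CAR-KO liver overlapped. The probe was dim, with CAR-KO liver signals of 197 and 436 on the tumour arrays over local backgrounds of 58 and 299, and the offset of 50 added to the signals makes ratios of dim probes smaller.

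The calls for Gstm2, Gstm5 and Mgst3 in tumour held when any single array was left out and when both arrays of the PB pair were. With the software's processed signals the ratios were 3.46, 1.75 and 1.65, and no probe of the array passed (adjusted p 0.108, 0.126 and 0.189). On the 2 tumour arrays alone, Gstm2 passed and Gstm5 and Mgst3 did not (adjusted p 0.065 and 0.107).

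**Figure D2:**
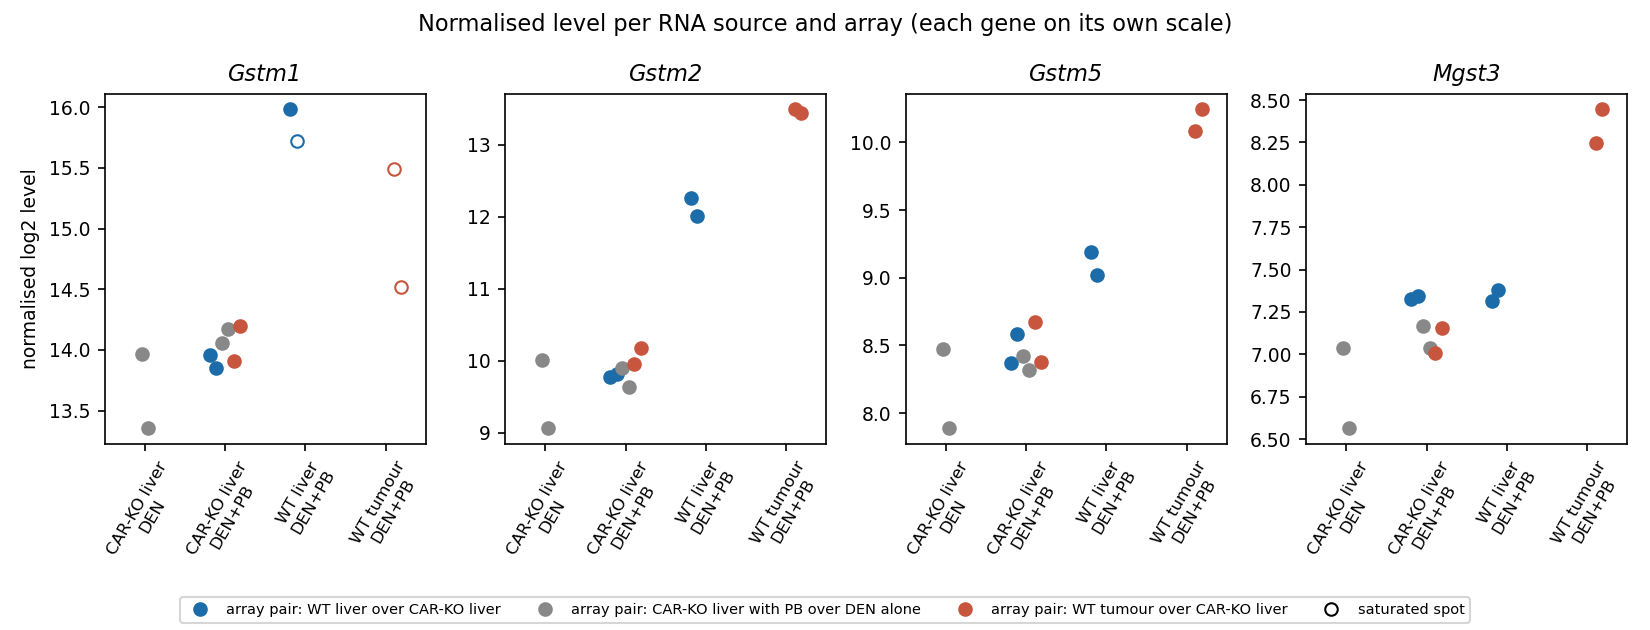
Normalised log2 level (vertical axis, a scale of its own for each gene) in the 4 RNA sources (horizontal axis), 1 point per array, coloured by the array pair, with open circles for saturated spots. The points of Gstm2 and Gstm5 rise from CAR-KO liver to WT liver to tumour. For Gstm5 neither step passed the test, and for Gstm2 the step from WT liver to tumour did not. The dimmer Gstm5 probe, at 0.07 ± 0.15 in WT liver over CAR-KO liver, is not drawn. Mgst3 is high in tumour (8.25 and 8.44), and the open Gstm1 points are lower limits.

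Gstm1 was saturated in the tumour channel on both tumour arrays, with mean signals of 65215 and 65517, so its level there has a lower bound and no value. The fitted ratio of tumour over CAR-KO liver was 1.94-fold, with an adjusted p of 0.133 (limma), and Gstm1 did not pass the test. Saturation can make this fold too small, but it sets no bound on the error. The 95% interval of the log2 ratio was 0.25 to 1.67 before adjustment. The fold takes the mean normalised log2 levels of both arrays, 15.01 in tumour and 14.05 in CAR-KO liver. The turned ratios were 1.59 on array 1 and 0.33 on array 2. The log2 ratio depended on a single array: it was 1.81 without array 2 of the tumour pair and 0.11 without array 1. With median centring the ratio was 1.69 (adjusted p = 0.015, limma), where 19.9% of all probes passed.

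Gstp1 had the lowest ratio of the family in tumour, -0.78 ± 0.28 (adjusted p = 0.164, limma), with -0.91 and -0.65 on the arrays. Its probe is described in the files as Gstp2 and carries an accession that RefSeq assigns to Gstp1. The genes are neighbours on chromosome 19 and nearly identical, so the values may belong to either or both. The level was 12.01 and 12.42 in tumour, 12.71 and 12.76 in WT liver, and 12.84 to 13.08 in CAR-KO PB liver. These 3 sources did not overlap, but CAR-KO liver after DEN alone, at 11.63 and 13.39, spanned them all, and the fitted difference did not pass the test. Under the alternative settings the ratio ran from -1.05 to -0.10.

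Mgst1, the abundant microsomal transferase of hepatocytes, was at -0.34 ± 0.15 (-0.33 and -0.35, adjusted p = 0.227, limma). Its sign turned under median centring, to 0.38. Gstt1 and Gstt2 were at 0.43 ± 0.21 and 0.48 ± 0.20 (adjusted p 0.253 and 0.206), and passed with median centring alone, at 1.03 and 0.98, where 19.9% of all probes passed. Gstz1 was at -0.06 ± 0.15. Over the 9 genes the median was 0.48, against -0.01 over all probes, and 6 of the 9 were above 0.

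Gsta4 encodes the alpha-class enzyme that conjugates 4-hydroxynonenal, a product of lipid peroxidation. Its probe was printed in 10 spots on each array, which shows the error of single spots. In the WT and PB pairs the 10 spots of an array spread by an SD of 0.08 to 0.13. The probe mean was 0.36 and 0.23 in WT liver and 0.05 and 0.39 in the PB comparison. On tumour array 1 the spots spread by an SD of 0.56, from -1.05 to 0.91, and 9 of 10 were below 0. A single spot, in column 1 of the array, was at 0.91, and the other 9 lay between -1.05 and -0.59. On tumour array 2 all 10 lay between 0.997 and 1.24.

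The dye-swapped tumour arrays thus gave Gsta4 opposite signs, -0.61 and 1.11 on average, a gap far wider than the spread of the spots on array 2 (SD 0.08). The fitted value was 0.25 ± 0.27 (adjusted p = 0.599, limma). Without tumour array 1 it was 0.999 and passed (adjusted p = 0.026), and without array 2 it was -0.49 and did not (adjusted p = 0.125). No direction can be given for Gsta4 in tumour.

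**Figure D3:**
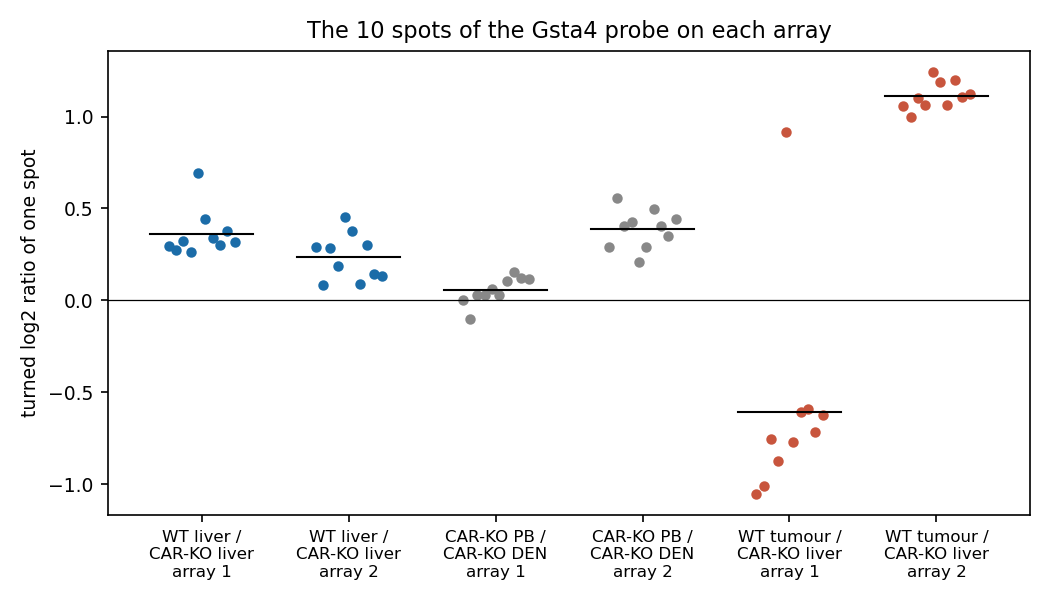
Turned log2 ratio (vertical axis) of each of the 10 spots of the Gsta4 probe on the 6 arrays (horizontal axis), with the mean per array as a black line. The spots lie close together on 5 arrays. On tumour array 1, 9 spots lie between -1.05 and -0.59 and 1 lies at 0.91, while tumour array 2 lies at 0.997 to 1.24.

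No array set tumour against WT liver directly, so the ratio of WT tumour over WT liver was taken from their ratios to CAR-KO liver (4 arrays). None of the 9 genes passed the test, and neither did any of the 20743 probes (limma, 0% called, 1737 at an unadjusted p under 0.05). The values were 1.06 ± 0.27 for Gstm2 (adjusted p = 0.394), 1.01 ± 0.21 for Gstm5 (0.314) and 1.25 ± 0.22 for Mgst3 (0.236). The 95% interval of the difference was 0.42 to 1.70 for Gstm2, 0.52 to 1.51 for Gstm5 and 0.73 to 1.78 for Mgst3, before adjustment. Without array 2 of the tumour pair all 3 passed, at 1.44, 1.0 and 1.30 (adjusted p 0.0053, 0.029 and 0.0093), where 10.4% of all probes passed (2164, of which 426 were higher). Gstm1 was saturated in tumour on both arrays and in WT liver on 1 of 2, and no fold is given for it. The test gave Gstm1 the call lower without tumour array 1 (adjusted p = 0.012), a fit that rests on the saturated reading of array 2 and in which 0.935% of all probes passed.

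In CAR-KO liver, no member of the family passed the test when PB was added to DEN. This comparison asks what PB does where the receptor is missing. None of 20742 probes passed (limma, 0% called, 565 at an unadjusted p under 0.05). Gstm2 was at 0.23 ± 0.19, with -0.11 on array 1 and 0.57 on array 2. Gstm1 was at 0.45 ± 0.30 (0.09 and 0.82), Gstt1 at 0.59 ± 0.21 (0.02 and 1.16), Gstt2 at 0.57 ± 0.20 (-0.01 and 1.15) and Gstp1 at 0.52 ± 0.28 (-0.31 and 1.36). Mgst1 was at 0.00 ± 0.15. The fitted ratios of all 9 genes were above 0, with a median of 0.30 against -0.01 over all probes.

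The arrays of this pair differed. Array 2 gave the higher ratio for 9 of 9 genes, with a median gap of 0.68, while over all probes array 2 was the higher for 50.2% and over the 5151 brightest probes for 53.6% (median gap 0.05). On array 1 the same genes lay between -0.31 and 0.13. Of the 4 hepatocyte markers none passed; Apoa1, Trf and Ass1 were at 1.19, 1.22 and 1.08 and Ttr at -0.07, and their mean log2 level in CAR-KO liver after DEN alone was 9.73 on one array and 11.91 on the other, against 11.45 to 11.83 in CAR-KO PB liver. The part of this gap in the values was not tested.

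Among other genes of the glutathione transferase and MAPEG families, 15 were tested. In WT tumour 3 were higher and 1 was lower, where 2.53% of all probes were higher and 0.839% lower. In the other comparisons none passed. Gsta1, an alpha-class gene next to Gsta4 on chromosome 9, was at 1.48 ± 0.16 (1.38 and 1.57, adjusted p = 0.0044, limma). Ptges, the microsomal prostaglandin E synthase of the MAPEG family, was at 1.24 ± 0.15 (adjusted p = 0.0066). Without background subtraction Ptges was at 0.65 and did not pass (adjusted p = 0.053), and with the processed signals it was at 2.46. Gstm6 was at 1.55 ± 0.28 (adjusted p = 0.030), with arrays as far apart as 0.29 and 2.81, and it lost the call without either array of the PB pair (adjusted p = 0.097). Gstk1, the kappa-class enzyme of mitochondria and peroxisomes, was lower at -1.02 ± 0.15 (-0.96 and -1.08, adjusted p = 0.016), and its call held under 9 of 18 alternatives: it was lost without either array of the PB pair (adjusted p = 0.063), and with median centring the ratio was -0.38 (adjusted p = 0.113). The median of the 15 was 0.13.

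Genes that make and recycle glutathione were mixed in tumour: of 16 tested, 2 were higher and 2 lower (median 0.15). Over all probes 2.53% were higher and 0.839% lower. Gsr, the glutathione reductase, was at 1.13 ± 0.15 (adjusted p = 0.010, limma), and Ggt1, the gamma-glutamyltransferase that starts glutathione breakdown outside the cell, was at 1.18 ± 0.17 (adjusted p = 0.013). Without background subtraction Ggt1 was at 0.59 and did not pass (adjusted p = 0.092). With array weights it lost its call too (adjusted p = 0.066), and with the processed signals it was at 2.22. Gnmt, the glycine N-methyltransferase of methionine metabolism, was lower at -1.60 ± 0.29 (adjusted p = 0.030), a call that held under 11 of 18 alternatives and was lost with median centring (-0.90, adjusted p = 0.072). Ahcy, which hydrolyses S-adenosylhomocysteine, was at -0.77 ± 0.15 (adjusted p = 0.041) and lost its call when any array outside the tumour pair or tumour array 1 was left out (adjusted p 0.076 to 0.114). With median centring Ahcy was at -0.09 (adjusted p = 0.685), and its call held under 5 of 18 alternatives. Without tumour array 2, where 22.7% of all probes passed, 9 of the 16 did (5 higher and 4 lower).

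Among 15 genes of glutathione-dependent reduction, Gpx2, a glutathione peroxidase known mainly from gut epithelium, was higher at 1.77 ± 0.16 (1.64 and 1.90, adjusted p = 0.0020, limma), and the median was 0.40. No other gene of this list passed, beside 3.36% of all probes. Without tumour array 1, 2 genes of this list passed beside 3.41% of all probes, and without tumour array 2, 5 did beside 22.7%. Among 8 genes of conjugate export, the transporters Abcc2 (1.51 ± 0.15, adjusted p = 0.0029), which moves glutathione conjugates into bile, and Abcc5 (1.54 ± 0.16, adjusted p = 0.0034) were higher, with a median of 0.49. Over all probes 2.53% were higher. Without tumour array 2, 5 of these 8 passed, beside 22.7% of all probes.

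Of 14 other phase 2 genes, 4 were higher and 2 lower in tumour (median 0.13), where 2.53% of all probes were higher and 0.839% lower. Nqo1, a quinone reductase and a standard NRF2 target, was at 2.18 ± 0.16 (adjusted p = 0.0011, limma). Ugdh, which makes UDP-glucuronate, was at 2.11 ± 0.17 (0.0013). Sult1e1, the oestrogen sulfotransferase, was at 1.95 ± 0.18 (0.0020), and Ephx1, the microsomal epoxide hydrolase, was at 1.66 ± 0.22 (0.0093, with 1.02 and 2.31 on the arrays). Ephx1 lost its call without the dye term (adjusted p = 0.181) and with a normexp offset of 16 in place of 50 (adjusted p = 0.060). Nnmt (-1.52 ± 0.23) and Sult5a1 (-1.02 ± 0.21) were lower; they are named after their values were seen, and Sult5a1 lost its call without any one array other than tumour array 1. Sult1e1 was also the gene of these lists that passed in WT liver over CAR-KO liver (1.77 ± 0.18, adjusted p = 0.020), a call lost without either array of the WT pair or of the PB pair (adjusted p 0.184 to 0.914).

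Of 16 regulators, 3 were higher in tumour (median 0.15), where 2.53% of all probes were higher. Ahr, the dioxin receptor, was at 2.60 ± 0.16 (2.64 and 2.56, adjusted p = 0.00056, limma), Nr1i3 itself at 1.81 ± 0.16 (0.0019) and Nfe2l2 at 1.34 ± 0.21 (0.019). Nr1i3 encodes CAR, which the mice of the denominator lack, so its ratio cannot tell the knockout from a change in tumour. Nfe2l2 lost its call with the smaller normexp offset (adjusted p = 0.065) and with array weights (adjusted p = 0.092). Without tumour array 2, 6 of the 16 passed (3 higher and 3 lower), beside 22.7% of all probes. In WT liver over CAR-KO liver the Nr1i3 probe was at 0.79 ± 0.16 and did not pass (adjusted p = 0.412). On the 2 tumour arrays alone, 0.299% of all probes passed. There Gsta1, Gsr, Gpx2, Abcc2, Abcc5, Sult1e1 and Nr1i3 lost their calls in tumour (adjusted p 0.0503 to 0.146, limma).

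**Figure D4:**
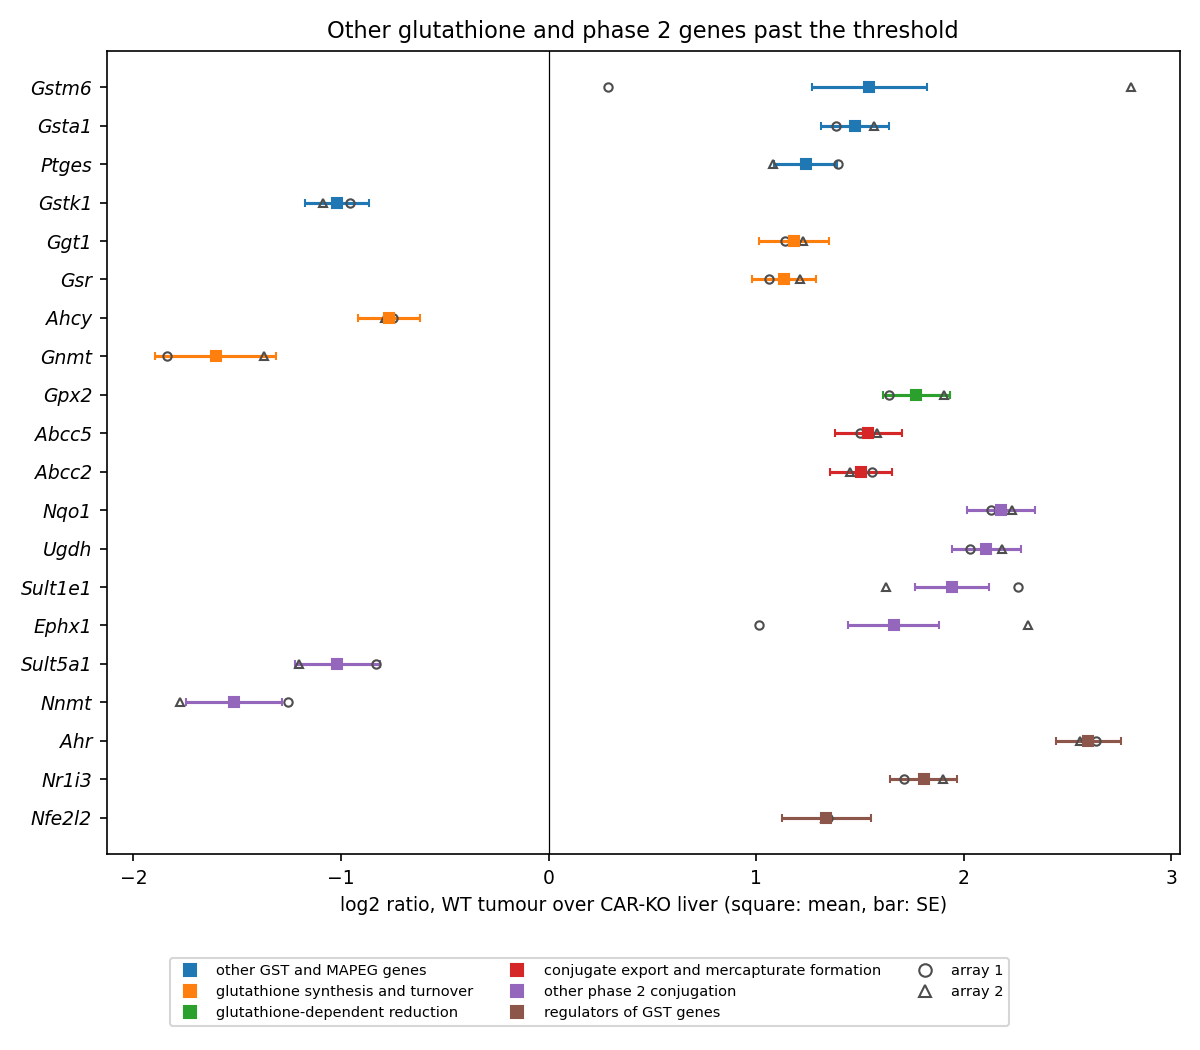
Log2 ratio of WT tumour over CAR-KO liver (horizontal axis) of the genes of the 6 other lists that passed the test (vertical axis), as the mean with its SE (squares, coloured by list) and the 2 arrays (open circle and triangle). Nqo1, Ugdh and Ahr stand above 2, and the arrays of Gstm6 lie at 0.29 and 2.81.

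The genes nearest to Gstm2 by Euclidean distance over the 6 turned ratios, among 9203 genes, were Cyp2c55 (distance 0.88), a cytochrome P450, Rhbg (1.08), an ammonium transporter, and Glul (1.11), glutamine synthetase. In WT tumour they were at 3.58, 3.24 and 3.20, and in WT liver at 2.67, 2.17 and 1.77. Nearest to Gstm5 were Mrps18a (0.41), a mitochondrial ribosomal protein, Fmo1 (0.42), a flavin monooxygenase, and Nr1i3 (0.44), whose product the CAR-KO mice lack. These distances are descriptions over arrays that share 1 RNA source.

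Rhbg and Glul are markers of pericentral hepatocytes, the zone around the central vein, and both belong to the list of such markers given next. They were picked by their nearness to Gstm2, so the counts of that list are not independent of the pick. Of 12 pericentral markers tested, 2 (Rhbg and Nkd1) were higher in WT liver, where 0.0916% of all probes were. In tumour, where 2.53% of all probes were higher, 9 of them were, with a median ratio of 1.72. The call of Rhbg in WT liver held under 10 of 18 alternatives. It was lost without the dye term (adjusted p = 0.108, limma) and with the processed signals (adjusted p = 0.376). It was also lost without 1 or both arrays of the PB pair (with both left out, adjusted p = 0.087). Without array 1 or array 2 of the WT pair it was lost too, at ratios of 2.44 and 1.90. The mean log2 level of the 12 pericentral markers was 10.48 to 10.81 in tumour, 9.52 to 9.54 in WT liver, 8.57 to 8.91 in CAR-KO PB liver and 8.08 to 8.64 after DEN alone. Of 6 periportal markers, 1 was lower in WT liver and 4 were lower in tumour (median -1.71). Over all probes, 0.00964% were lower in WT liver, and in tumour 0.839% were lower and 2.53% higher. In tumour, 1 of 6 bile duct markers was higher (Krt19, 1.13; median of the list 0.00), 1 of 6 stellate cell markers was lower (Dcn, -1.34; median -0.18), 2 of 4 erythroid markers were lower (Hba-a1 and Hbb-bt; median -0.80), and 1 of 4 hepatocyte markers was lower (Ass1, -1.47; median -0.41). No marker of endothelium, macrophages, lymphocytes, neutrophils or pancreatic acini passed. The part of these cell types in the ratios of the family was not tested.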

How the data were processed

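Each scanner file gave, per spot, mean signals and local background medians, which are intensity readings without normalization, deposited by the authors. The files also hold the software's processed intensity and a log10 ratio of Cy5 over Cy3; the deposited value table repeats that log10 ratio. Per the file headers, the scanner software was Agilent Feature Extraction, version 7.1.1 on 5 arrays and version 7.5.1 on tumour array 2; the submitters' processing notes name 7.5. The genome build of the array design is not given in the sources used here.

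Signals were corrected with normexp (offset 50), loess-normalized within arrays without control and flagged spots, averaged per probe, and fitted in R 4.3.3 with limma 3.58.1 (lmFit, eBayes) as 3 comparisons and a dye term over all 6 arrays (2 residual and 5.48 prior degrees of freedom, 2-sided). A probe was tested when well above background in a channel on at least 2 arrays. Levels are per-channel log2 values after Aquantile scaling between arrays. Of 20868 probes, 8947 were named by accession, 249 by the symbol in the description and 261 by an older symbol; 11411 had no symbol. A gene with several probes is given by its brightest. All 108 readings of the 9 genes were well above background, 3 were saturated and none was flagged. The fit was tested on simulated data.

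The members and gene lists were chosen with earlier results of these data known. Genes were named by rule: all members with all their probes, up to 4 passing genes per list with the largest tumour ratio and any passing in WT liver, and the 3 nearest genes of the 2 members with the largest tumour ratios. Alternatives changed background correction, normalization, dye term, array weights, filters, saturated spots and the arrays used. Probe sequences were not used here, so cross-hybridisation between related Gst genes was not tested. The number of arrays limits the precision.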

Additional observations from a re-analysis of the deposited data

How the results depend on the processing

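For WT liver over CAR-KO liver, where 1 of the 9 genes passed, 0 passed with the software's processed signals and 0 with the deposited value table, 2 with array weights and 2 on the arrays of the comparison alone (Gstm1 in addition), and 0 without both arrays of the PB pair, an alternative chosen after seeing the data. Leaving out 1 array gave 0 to 2, and 4 to 94 over all probes against 21. For WT tumour over CAR-KO liver, where 3 passed, 0 passed with the processed signals and 0 with the value table. With median centring 6 passed, where 19.9% of all probes did. On the arrays of the comparison alone 1 passed, where 0.299% of all probes did. The count over all probes, 698, changed widely when 1 array was left out. For WT tumour over WT liver, where 0 passed, leaving out 1 array gave 0 to 3, and 0 to 2164 over all probes. For the PB comparison 0 passed under every alternative run. No ratio that passed in the main fit changed sign. With 1 array of a pair left out, the remaining array is assumed to vary like the others, and leaving out either array of the PB pair gives the other comparisons the same fit. No paired analysis was possible because the replicate numbers name arrays in accession order and the labels pair none across comparisons. Ratios of dim probes (Mgst3, the dimmer Gstm5 probe) are limited by signal over background, and Gstm1 by saturation.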
